A study of Mus musculus with 24 samples.

Results

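The p53 target genes described here are 32 genes of the p53 pathway: Trp53, which encodes the transcription factor p53 itself, and genes that p53 is known to switch on or that control it. They were picked by gene symbol, by a rule that uses no measured value, but with earlier results of these data known. Each of the 32 symbols matched 1 of the 55414 Ensembl genes of the count table, and all 32 were among the 16029 genes that passed the expression filter and were tested.

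p53 is kept low in most cells by the ubiquitin ligase MDM2 and its partner MDM4. DNA damage, lack of nucleotides and other stresses release p53, which then binds response elements near its targets. Those targets stop the cell cycle, adjust metabolism and nucleotide supply, repair DNA, or start apoptosis through mitochondria or death receptors, and Mdm2 itself is a target that closes a feedback loop. Several of the genes answer to other factors as well: Sesn2, Gdf15, Pmaip1, Tnfrsf10b and Bbc3 are also known to be induced through ATF4 or CHOP, the factors of amino acid and endoplasmic reticulum stress.

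RNA was measured in 24 D4M tumours, grown from a mouse melanoma line in wild-type C57BL/6 mice. The 4 groups of 6 tumours were given intraperitoneal injections of a control antibody of the IgG2a class (IgG2a), an antibody against PD-1, an inhibitory receptor of T cells (PD-1), the control antibody together with brequinar (BRQ+IgG2a), or both brequinar and the antibody against PD-1 (BRQ+PD-1). Every mouse thus received an antibody, and no group was left untreated. Brequinar inhibits dihydroorotate dehydrogenase, an enzyme of de novo pyrimidine synthesis, so the comparisons ask how tumours whose pyrimidine supply was targeted expressed the p53 programme, with and without checkpoint blockade. The sources used here give no doses, schedules or age of the mice. The labels call the tumours biological replicates.

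The libraries held 19106205 to 34282319 counts. In 4 of them (IgG2a replicates 2 and 3, PD-1 replicate 6 and BRQ+IgG2a replicate 4) Acta1, the actin of skeletal muscle, stood at 4171 to 14072 CPM (counts scaled to the library total) against at most 439 CPM in the other 20, and these are called muscle-rich below. The D4M label could not be checked on pigment genes: Tyr, Tyrp1, Dct and Mlana each averaged under 0.1 CPM, while 6 markers of undifferentiated melanoma and neural crest summed to 1140.1 to 1837 CPM. BRQ+IgG2a replicate 5 stood apart in proliferation genes, 22 of which summed to 1015 CPM there and to 1595 to 2950.3 CPM in the other 23 tumours. Numbers of called genes, and the fold changes of Ccng1 and Ak1, are given with and without the muscle-rich libraries. Numbers of called genes are also given without BRQ+IgG2a replicate 5 where they moved.

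On a scale that allows genes to be compared (RPKM, which divides CPM by the exon length in kilobases), the 32 genes spanned a wide range of levels. Rps27l, a ribosomal protein S27-like gene that p53 induces, had the highest mean level over the 24 tumours at 101 RPKM. Phlda3, which encodes a repressor of AKT signalling, followed at 75.0 RPKM, then Cdkn1a, the p21 inhibitor of cyclin-dependent kinases, at 50.4 RPKM and Ccng1, which encodes cyclin G1, at 50.2 RPKM. The ranges over tumours of Cdkn1a and Ccng1 overlapped (29.2 to 90.2 and 30.1 to 112 RPKM), and their order does not exceed that spread. Trp53 averaged 35.8 RPKM, Mdm2 18.8 RPKM and Mdm4 5.86 RPKM. At the bottom of the order stood Pmaip1 (1.63 RPKM), Gdf15 (1.18 RPKM), Ddb2 (1.07 RPKM) and Perp (0.145 RPKM), the last with 0 to 25 counts per tumour. Rps27l resembles the ribosomal gene Rps27, and Ddb2 shares 23.8% of its exon bases with Acp2 on the opposite strand, which averaged 2073 counts against 74.1 for Ddb2. The sources used here do not say how reads were assigned between such genes, so the levels of Rps27l and Ddb2 are uncertain. Cdkn1a, Plk3, Bax, Ei24 and Rrm2b share 3.32% to 12.2% of their exon bases with genes that averaged at most 20.7 counts.

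**Figure D1:**
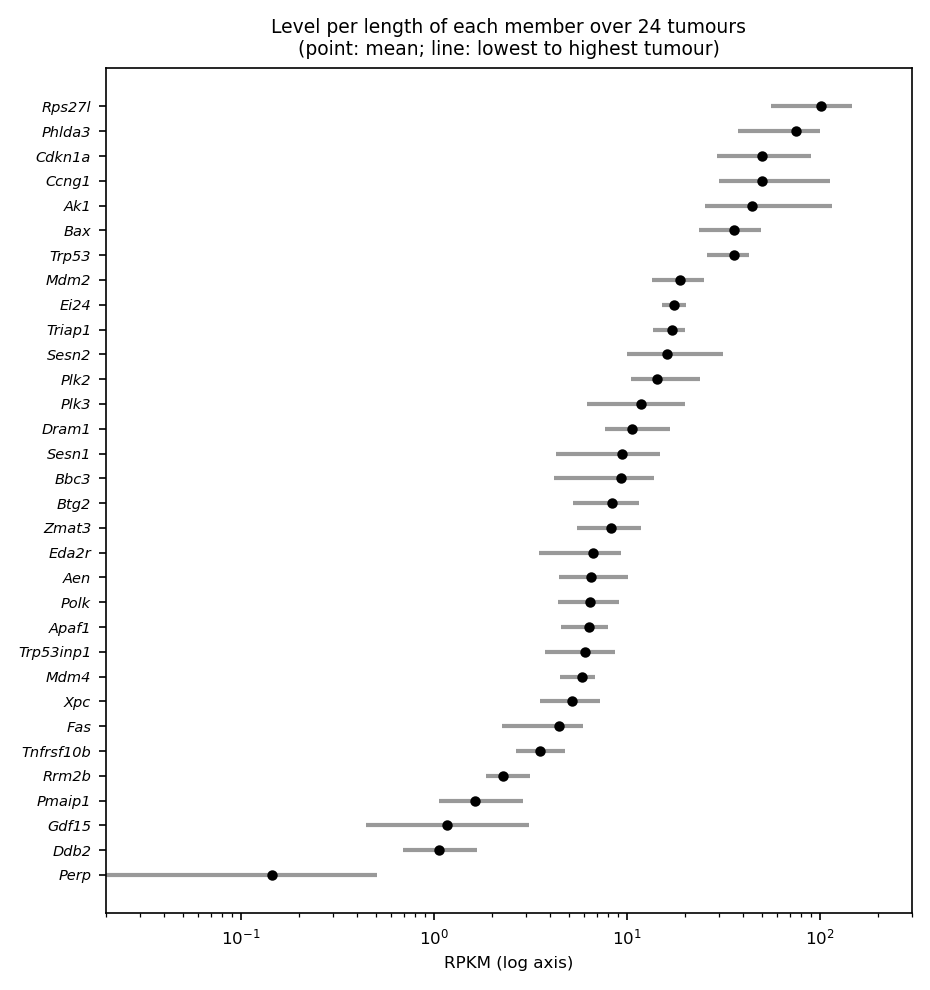
Level of each of the 32 genes in RPKM on a log axis, as the mean (point) and the lowest to highest of 24 tumours (line). Rps27l is at the top with a mean of 101 RPKM and Perp at the bottom with 0.145 RPKM; the line of Perp runs off the left edge because its lowest value is 0.

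A part of the p53 programme was lower with brequinar, by modest amounts. Over both antibodies, 12 tumours with brequinar against 12 without, 8 of the 32 genes (25%) fell and 1 (3.12%) rose at an adjusted p under 0.05, where 5.57% of all tested genes were called lower and 6.91% were called higher. The genes that fell were Trp53, Ccng1, Zmat3, Rps27l, Sesn2, Phlda3, Aen and Tnfrsf10b, and the gene that rose was Fas. Of the 32 genes 24 (75%) had a log2 fold change below 0, against 48.8% of all genes. The median log2 fold change of the 32 was -0.13, against 0.0066 for all genes tested. The largest of the 9 changes was that of Sesn2, which fell by 42.5%, and the smallest was that of Trp53, which fell by 12.6%. Cdkn1a and Mdm2, the targets most often used to read p53 activity, did not pass the test. The 9 calls held in each of 24 fits that left out 1 tumour, without the muscle-rich libraries, and under every other normalization, filter and test tried.

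**Figure D2:**
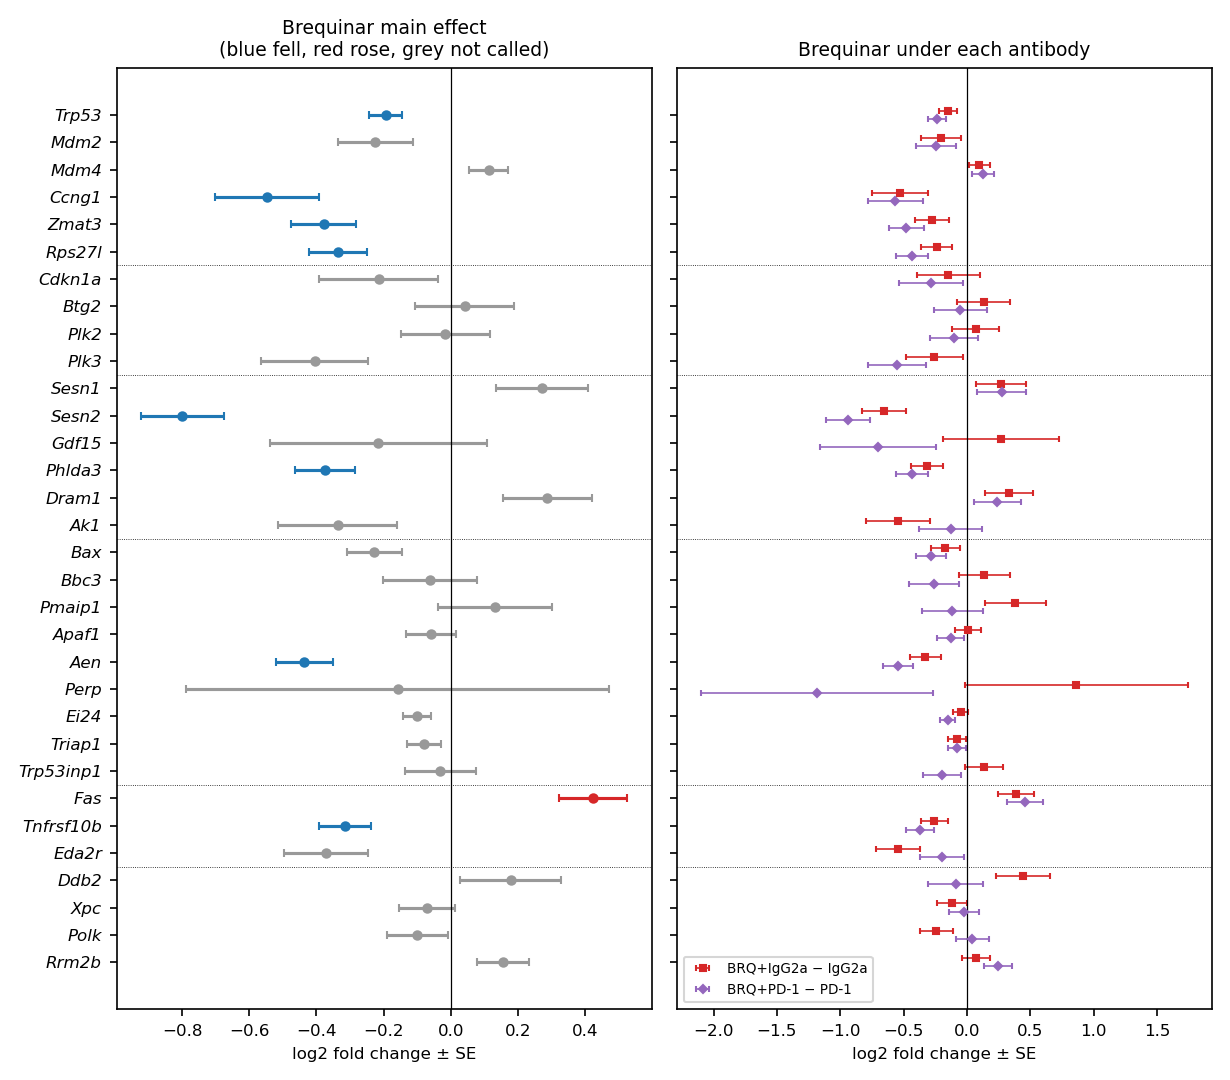
Log2 fold change ± SE of each of the 32 genes, ordered by role, for the brequinar main effect (left; 12 tumours against 12) and for brequinar under each antibody (right; 6 against 6). In the left panel the 8 genes in blue lie between -0.19 and -0.80 and Fas, in red, at 0.42; in the right panel the widest bars belong to Perp, the gene with the fewest counts.

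The tumours behind these calls are shown one by one in the plot of CPM by tumour. For Sesn2, 11 of the 12 brequinar tumours lay below the lowest of the other 12, for Aen 10 of 12 and for Rps27l 9 of 12. For no called gene were the ranges of the 12 and 12 tumours fully apart. In these bulk samples, fewer cells of a type and less RNA per cell cannot be told apart.

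**Figure D3:**
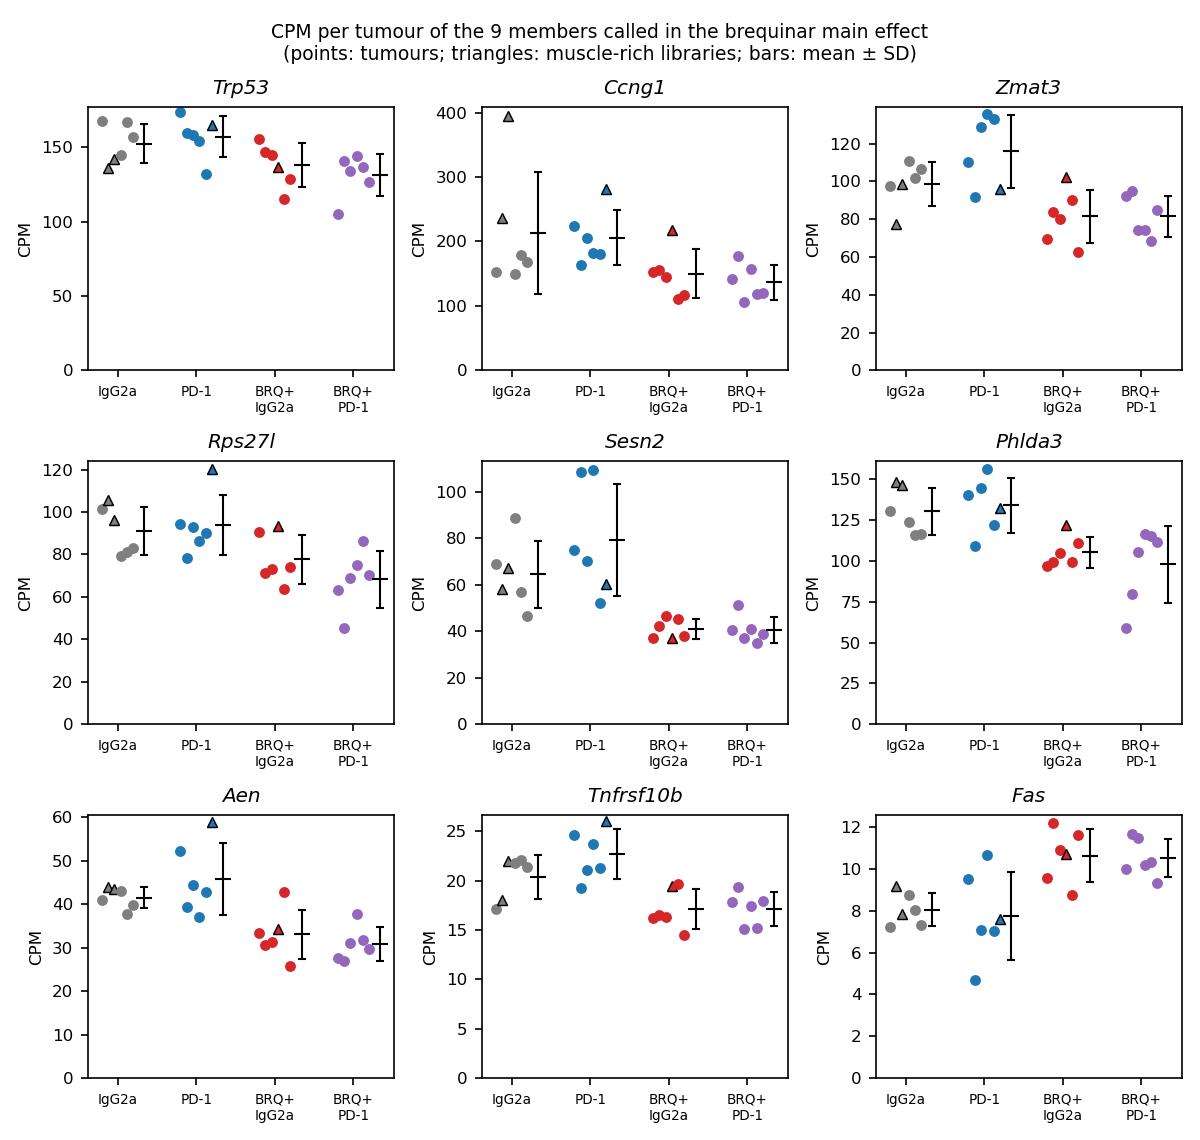
CPM of the 9 called genes in each of 24 tumours (points; triangles are muscle-rich libraries), with mean ± SD of each group of 6 (bars). Sesn2 shows the clearest step, from 46.7 CPM or more without brequinar to 51.3 CPM or less with it, while the highest Ccng1 points are muscle-rich libraries.

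Because genes that p53 binds directly often carry its response decamer, a 10-base consensus usually found as a pair, near their start, the promoters were read for the genes that fell and for Cdkn1a and Mdm2. RefSeq promoters (250 bases before to 50 after the start, build GRCm38.p6, which is older than the build of the counts) were listed for 24 of the 32 genes. The p53 decamer, searched on both strands, was in 8.36% of all 32851 promoters and in 11 of 36 promoters (30.56%) of these 24 genes. Among the genes that fell, it was in 5 of 8 promoters, belonging to Trp53, Ccng1, Rps27l and Aen. Those 8 promoters were of 6 genes, as none was listed for Zmat3 and Tnfrsf10b. A pair of decamers with at most 13 bases between them was in 0.0731% of all promoters and, within these genes, in the promoter of Cdkn1a alone. The genes were picked for being p53 targets, so these shares describe the list and give no independent evidence. In the stretches below the capitals mark the decamer, read 5′ to 3′ on the strand of the gene.

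Aen (chr7:78895927-78895956, plus strand): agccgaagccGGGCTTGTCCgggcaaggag
Rps27l (chr9:66946193-66946222, plus strand): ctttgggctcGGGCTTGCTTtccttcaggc
Rps27l (chr9:66946296-66946325, plus strand): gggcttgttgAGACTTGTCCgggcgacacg
Mdm2 (chr10:117710895-117710984, minus strand): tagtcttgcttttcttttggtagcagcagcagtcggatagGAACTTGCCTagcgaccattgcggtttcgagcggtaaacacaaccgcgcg
Ccng1 (chr11:40755422-40755511, minus strand): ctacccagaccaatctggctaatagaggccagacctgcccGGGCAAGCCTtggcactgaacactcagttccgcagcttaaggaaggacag
Trp53 (chr11:69580274-69580303, plus strand): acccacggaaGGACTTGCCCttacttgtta
Cdkn1a (chr17:29090896-29090947, plus strand): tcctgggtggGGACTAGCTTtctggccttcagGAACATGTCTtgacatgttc

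Both Rps27l stretches are from 1 promoter, and the Cdkn1a stretch holds 2 decamers. Sesn2 and Phlda3 had a RefSeq promoter without a match in this window. The CEBP-ATF composite motif, TGATGNAAN on either strand, was in 3.95% of all promoters and in 1 of the 36, that of Polk. A match is a description of the sequence and no evidence of binding in these tumours.

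Of the factor and its feedback regulators, 4 of 6 fell with brequinar: Trp53, Ccng1, Zmat3 and Rps27l. Trp53 (ENSMUSG00000059552) measured 136, 151 and 168 CPM in IgG2a, 132, 159 and 174 CPM in PD-1, 115, 141 and 156 CPM in BRQ+IgG2a and 105, 135 and 144 CPM in BRQ+PD-1 (lowest, median and highest of 6 tumours). The fall was small against the range of each group, with 7 of the 12 tumours without brequinar above the highest brequinar tumour. Its log2 fold change over both antibodies was -0.19 ± 0.05 (adjusted p = 0.0118).

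Ccng1 (ENSMUSG00000020326), a cyclin G gene whose product recruits a phosphatase to MDM2, ranged over 149, 173 and 394 CPM in IgG2a, 163, 194 and 282 CPM in PD-1, 111, 149 and 218 CPM in BRQ+IgG2a and 106, 130.4 and 177 CPM in BRQ+PD-1. The tumours without brequinar were higher, but the top 3 of all 24 values came with muscle reads: the 4 muscle-rich libraries stood at 218 to 394 CPM and the other 20 at 106 to 223 CPM. The log2 fold change was -0.55 ± 0.16 (adjusted p = 0.0236), and without the muscle-rich libraries it was -0.36 (adjusted p = 0.0111).

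Zmat3 (ENSMUSG00000027663), which encodes a p53-induced RNA-binding protein, stood at 77.2, 100.3 and 111 CPM in IgG2a, 91.8, 119.8 and 136 CPM in PD-1, 62.8, 82.1 and 102 CPM in BRQ+IgG2a and 68.6, 79.6 and 95.01 CPM in BRQ+PD-1. All 12 brequinar tumours were below the mean of the other 12, and 6 of the tumours without brequinar were above every tumour with it. The log2 fold change was -0.38 ± 0.10 (adjusted p = 0.0131). Rps27l (ENSMUSG00000036781), whose product binds MDM2, gave 79.2, 89.6 and 106 CPM in IgG2a, 78.5, 91.5 and 120.3 CPM in PD-1, 63.8, 73.8 and 93.3 CPM in BRQ+IgG2a and 45.4, 69.6 and 86.4 CPM in BRQ+PD-1. The groups with brequinar were lower, with BRQ+PD-1 replicate 2 the lowest of all, and the log2 fold change was -0.34 ± 0.09 (adjusted p = 0.0141). Rps27l stood at 93.3 to 120.3 CPM in the muscle-rich libraries and at 45.4 to 101 CPM in the other 20. Its call held without the muscle-rich libraries.

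The regulators that act on p53 protein did not pass the test. Mdm2 (ENSMUSG00000020184) stood at 86.1, 96.7 and 121 CPM in IgG2a, 97.2, 107 and 123 CPM in PD-1, 69.0, 79.5 and 124 CPM in BRQ+IgG2a and 69.4, 85.9 and 128 CPM in BRQ+PD-1. In 8 of 12 brequinar tumours Mdm2 was below the lowest tumour without brequinar, while BRQ+IgG2a replicate 5 and BRQ+PD-1 replicate 1 were above the highest. Its log2 fold change was -0.23 ± 0.11 (adjusted p = 0.192), with a 95% interval of -0.46 to 0.01. Mdm4 changed by 0.11 ± 0.06 (adjusted p = 0.222), in the opposite direction to Mdm2.

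Of the 4 cell-cycle arrest genes edgeR called none, with Plk3 alone at an unadjusted p under 0.05. Cdkn1a (ENSMUSG00000023067) stood at 143, 171 and 241 CPM in IgG2a, 196, 210.1 and 228 CPM in PD-1, 104, 123 and 320.4 CPM in BRQ+IgG2a and 121, 162 and 251 CPM in BRQ+PD-1. Of the 6 BRQ+IgG2a tumours, replicate 5 had the highest Cdkn1a of all 24, and the group spread of 82.4 CPM (SD, n = 6) compares with 12.9 CPM in PD-1. The log2 fold change over both antibodies was -0.22 ± 0.18 (adjusted p = 0.447), with a 95% interval of -0.58 to 0.15. Plk3, a polo-like kinase of the stress response, stood at 26.2, 29.4 and 42.9 CPM in IgG2a, 29.5, 37.4 and 46.5 CPM in PD-1, 15.7, 20.9 and 50.7 CPM in BRQ+IgG2a and 21.3, 25.6 and 29.1 CPM in BRQ+PD-1. As for Cdkn1a, BRQ+IgG2a replicate 5 was its highest tumour, and Plk3 changed by -0.41 ± 0.16 (adjusted p = 0.0969). Btg2, an antiproliferative cofactor, changed by 0.040 ± 0.15 (adjusted p = 0.890) and Plk2, a kinase that controls centriole duplication, by -0.017 ± 0.13 (adjusted p = 0.951).

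Leaving out BRQ+IgG2a replicate 5, the tumour low in proliferation genes, raised the number of genes called over both antibodies from 9 to 14, of which 12 fell and 2 rose. Calls over all genes rose as well in that fit, from 5.57% to 7.63% lower and from 6.91% to 7.88% higher. The 9 genes kept their calls. The 5 added were Cdkn1a at -0.41 (adjusted p = 0.0239), Mdm2 at -0.32 (adjusted p = 0.0209), Plk3 at -0.60 (adjusted p = 0.000573), Eda2r at -0.43 (adjusted p = 0.0174) and Sesn1 at 0.34 (adjusted p = 0.0308). Mdm2 was also called without BRQ+PD-1 replicate 1, at -0.31 (adjusted p = 0.0392). The calls of the arrest gene Cdkn1a and the feedback gene Mdm2 thus turned on 1 or 2 brequinar tumours.

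Among the 6 genes of stress and metabolism, Sesn2 and Phlda3 fell. Sesn2 (ENSMUSG00000028893) encodes a sestrin, a leucine sensor that restrains the growth kinase complex mTORC1. It stood at 46.7, 62.9 and 88.8 CPM in IgG2a, 52.4, 72.5 and 109.6 CPM in PD-1, 37.3, 40.1 and 46.5 CPM in BRQ+IgG2a and 35.0, 39.6 and 51.3 CPM in BRQ+PD-1. BRQ+PD-1 replicate 2 was the only brequinar tumour within the range of the others, and conversely 11 of 12 tumours without brequinar exceeded it. Sesn2 changed by -0.80 ± 0.12 (adjusted p = 0.000282), and by -0.85 to -0.74 in the 24 fits that left out 1 tumour.

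Phlda3 (ENSMUSG00000041801) gave 116, 127 and 148 CPM in IgG2a, 109, 136 and 156 CPM in PD-1, 96.9, 102 and 122 CPM in BRQ+IgG2a and 58.9, 109 and 117 CPM in BRQ+PD-1. BRQ+PD-1 replicate 1 was the lowest, and all 12 brequinar tumours were below the mean of the others. The log2 fold change was -0.37 ± 0.09 (adjusted p = 0.00884).

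Sesn1 (ENSMUSG00000038332), the paralogue of Sesn2, was not called. Sesn1 stood at 20.7, 37.1 and 42.3 CPM in IgG2a, 25.0, 34.4 and 36.3 CPM in PD-1, 17.2, 44.7 and 59.3 CPM in BRQ+IgG2a and 29.7, 35.8 and 51.2 CPM in BRQ+PD-1. In 6 of the 12 brequinar tumours it was above the highest tumour without brequinar, and the log2 fold change was 0.27 ± 0.14 (adjusted p = 0.203), with a 95% interval of -0.02 to 0.56. The interval of Sesn2, -1.06 to -0.54, did not overlap with it.

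Dram1 (ENSMUSG00000020057), a lysosomal gene of autophagy, gave 23.4, 26.0 and 34.8 CPM in IgG2a, 25.2, 28.2 and 43.5 CPM in PD-1, 24.7, 32.3 and 51.2 CPM in BRQ+IgG2a and 27.6, 34.4 and 45.5 CPM in BRQ+PD-1. The ranges overlapped in every pair of groups, and the log2 fold change was 0.29 ± 0.13 (adjusted p = 0.160). Gdf15 (ENSMUSG00000038508), a secreted stress cytokine, was low at 0.828, 1.59 and 5.03 CPM in IgG2a, 1.48, 2.70 and 3.93 CPM in PD-1, 1.02, 1.76 and 5.75 CPM in BRQ+IgG2a and 0.866, 1.54 and 3.09 CPM in BRQ+PD-1. Single tumours (IgG2a replicate 4 and BRQ+IgG2a replicate 5) set its highest values, and the change of -0.22 ± 0.32 (adjusted p = 0.705) was not called. Ak1, an adenylate kinase that is abundant in muscle, stood at 122 to 299 CPM in the muscle-rich libraries and at 66.1 to 113 CPM in the other 20. Its change of -0.34 ± 0.18 (adjusted p = 0.219) went to -0.084 (adjusted p = 0.547) without those libraries.

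Of 9 genes of mitochondrial apoptosis, Aen alone was called. Aen (ENSMUSG00000030609) encodes an exonuclease that digests DNA and RNA during apoptosis. It stood at 37.7, 42.0 and 43.9 CPM in IgG2a, 36.9, 43.5 and 58.8 CPM in PD-1, 25.9, 32.4 and 42.7 CPM in BRQ+IgG2a and 27.0, 30.4 and 37.7 CPM in BRQ+PD-1. All 12 brequinar tumours were below the mean of the others and 10 were below their lowest. The log2 fold change was -0.44 ± 0.09 (adjusted p = 0.00220), the smallest adjusted p among the 32 genes after Sesn2.

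The effectors of the same pathway gave no call. Bax (ENSMUSG00000003873), which permeabilises the outer mitochondrial membrane, stood at 48.4, 57.9 and 73.3 CPM in IgG2a, 52.5, 61.3 and 77.8 CPM in PD-1, 50.2, 51.1 and 56.1 CPM in BRQ+IgG2a and 37.1, 54.7 and 64.8 CPM in BRQ+PD-1. The groups overlapped, with 11 of 12 brequinar tumours below the mean of the others, and the change was -0.23 ± 0.08 (adjusted p = 0.0684). Bax was called without any of IgG2a replicate 6 and BRQ+PD-1 replicates 4 and 6, with adjusted p of 0.0412 to 0.0465. Bbc3 (ENSMUSG00000002083), which encodes PUMA, gave 14.7, 17.7 and 23.6 CPM in IgG2a, 16.7, 21.6 and 29.4 CPM in PD-1, 16.3, 20.9 and 25.6 CPM in BRQ+IgG2a and 8.92, 19.6 and 27.1 CPM in BRQ+PD-1. Its ranges overlapped throughout and it changed by -0.063 ± 0.14 (adjusted p = 0.812).

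Pmaip1 (ENSMUSG00000024521), which encodes NOXA, was low, at 2.897, 3.27 and 5.77 CPM in IgG2a, 2.96, 4.39 and 7.89 CPM in PD-1, 3.91, 4.85 and 6.77 CPM in BRQ+IgG2a and 3.09, 3.92 and 5.76 CPM in BRQ+PD-1. The ranges again overlapped, and Pmaip1 changed by 0.13 ± 0.17 (adjusted p = 0.651). Of the remaining genes of the group, Ei24, of the endoplasmic reticulum, changed by -0.10 ± 0.04, Triap1, an inhibitor of the apoptosome, by -0.080 ± 0.05, Apaf1, its scaffold, by -0.060 ± 0.07 and Trp53inp1, a p53 cofactor, by -0.031 ± 0.11. Their adjusted p ran from 0.112 (Ei24) to 0.879 (Trp53inp1). Perp, a desmosomal gene that p53 induces in epithelia, stayed at or under 0.993 CPM in all tumours, too low for its fold change to be read.

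The 3 death receptors went in different directions. Fas (ENSMUSG00000024778), the receptor of FAS ligand, which is present on many cells, activated T cells among them, stood at 7.21, 7.93 and 9.18 CPM in IgG2a, 4.68, 7.34 and 10.7 CPM in PD-1, 8.76, 10.8 and 12.2 CPM in BRQ+IgG2a and 9.32, 10.2 and 11.7 CPM in BRQ+PD-1. All 12 brequinar tumours were above the mean of the others and 6 exceeded their highest. Fas changed by 0.42 ± 0.10 (adjusted p = 0.00857). T cell markers rose with brequinar as well, 11 of 14 of them, where 6.91% of all genes were called higher. Their summed level was 16.9 to 91.2 CPM without brequinar and 27.1 to 216 CPM with it. Fas was not set against these markers tumour by tumour. No T cell marker was at 0 in all tumours. With the control antibody 12 of the 14 rose, and with the PD-1 antibody none was called by edgeR (1 at an unadjusted p under 0.05), while Fas changed by 0.39 ± 0.14 (adjusted p = 0.162) and 0.46 ± 0.14 (adjusted p = 0.0641) there. The part of T cells in the change of Fas was not tested.

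Tnfrsf10b (ENSMUSG00000022074), the mouse TRAIL receptor, fell, from 17.1, 21.6 and 22.05 CPM in IgG2a and 19.3, 22.5 and 26.0 CPM in PD-1 to 14.5, 16.4 and 19.6 CPM in BRQ+IgG2a and 15.1, 17.6 and 19.4 CPM in BRQ+PD-1. All 12 brequinar tumours lay below the mean of the others, and 9 of the others exceeded every brequinar tumour. The log2 fold change was -0.32 ± 0.08 (adjusted p = 0.0104). Eda2r, the ectodysplasin receptor XEDAR, stood at 30.8, 44.5 and 54.8 CPM in IgG2a, 39.7, 43.1 and 53.1 CPM in PD-1, 20.7, 32.8 and 38.4 CPM in BRQ+IgG2a and 24.9, 39.1 and 47.1 CPM in BRQ+PD-1. The ranges overlapped under both antibodies, with 11 of 12 brequinar tumours below the mean of the others, and Eda2r changed by -0.37 ± 0.12 (adjusted p = 0.0504), just outside the threshold. Eda2r was called without any of IgG2a replicate 1, BRQ+IgG2a replicates 4 and 5 or BRQ+PD-1 replicates 1 and 5, with adjusted p of 0.0174 to 0.0423.

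Of the 4 genes of DNA repair and nucleotide supply edgeR called none, and none had an unadjusted p under 0.05. Rrm2b (ENSMUSG00000022292), the p53-inducible subunit of ribonucleotide reductase, stood at 17.0, 20.3 and 21.6 CPM in IgG2a, 17.9, 19.1 and 22.9 CPM in PD-1, 18.0, 20.5 and 23.3 CPM in BRQ+IgG2a and 20.1, 21.97 and 28.8 CPM in BRQ+PD-1. The brequinar tumours were slightly higher, 11 of 12 at or above the mean of the others, and the change was 0.16 ± 0.08 (adjusted p = 0.198), with a 95% interval of -0.01 to 0.32. Ddb2 and Xpc, which recognise DNA damage for excision repair, changed by 0.18 ± 0.15 and -0.071 ± 0.08, and Polk, a translesion polymerase, by -0.10 ± 0.09. Their adjusted p were 0.467, 0.613 and 0.502.

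The effect of brequinar can be read within each antibody. With the control antibody (BRQ+IgG2a against IgG2a), Sesn2 was the only gene called among the 32 (3.12%), where 0.493% of all genes were called lower and 2.96% higher. Sesn2 changed by -0.66 ± 0.17 (adjusted p = 0.0339). At an unadjusted p under 0.05 there were 10 of the 32, 8 of them lower, against 14.8% of all genes. The count was 4 without BRQ+IgG2a replicate 5 (Plk3, Sesn2, Aen and Eda2r), where 2.25% of all genes were called lower, and 0 without any of IgG2a replicates 1, 3 and 4 or BRQ+IgG2a replicates 1, 2, 4 and 6, and 0 without the muscle-rich libraries.

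With the PD-1 antibody (BRQ+PD-1 against PD-1), 7 genes (21.9%) fell and none rose, against 2.66% of all genes called lower and 2.38% called higher. They were Sesn2 at -0.94 ± 0.17 (adjusted p = 0.00456), Aen at -0.54 ± 0.12 (adjusted p = 0.0129), Zmat3 at -0.48 ± 0.14 (adjusted p = 0.0432), Phlda3 at -0.44 ± 0.13 (adjusted p = 0.0480), Rps27l at -0.43 ± 0.12 (adjusted p = 0.0416), Tnfrsf10b at -0.37 ± 0.11 (adjusted p = 0.0487) and Trp53 at -0.24 ± 0.07 (adjusted p = 0.0465). Ccng1 changed by -0.57 ± 0.22 (adjusted p = 0.137) and Fas by 0.46 ± 0.14 (adjusted p = 0.0641), neither called. Sesn2 and Aen kept their calls in all 12 fits that left out 1 tumour, while 5 of the 7 sat close to the threshold. The count was 2 without PD-1 replicate 1 or BRQ+PD-1 replicate 3, 3 without PD-1 replicate 3, 5 or 6, 4 without PD-1 replicate 4 or BRQ+PD-1 replicate 1, 5 or 6, and 4 without the muscle-rich libraries, where Ccng1 was called with Zmat3, Sesn2 and Aen. Without PD-1 replicate 4, Fas was among the 4 and rose.

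These 2 comparisons share no tumour. Of the 32 genes, 17 (53.1%) were lower with brequinar in both, against 33.6% of all genes tested, 5 (15.6%) were higher in both, against 34%, and 10 (31.2%) went in opposite directions, against 32.4%. Each of the 8 genes that fell over both antibodies was lower in both comparisons, which the main effect averages. The difference between the 2 comparisons was tested as the interaction of brequinar with the PD-1 antibody. By edgeR it called no gene of the 32 and 0% of all genes, with 0 of the 32 and 7.62% of all genes at an unadjusted p under 0.05, and DESeq2 called 11 and limma voom 272 of all genes but none of the 32. A larger number of calls under the PD-1 antibody is therefore not shown to be a larger effect.

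The PD-1 antibody gave no call among the 32 genes, alone or on top of brequinar. For PD-1 against IgG2a, edgeR called 0.0187% of all genes, 3 in number, and of the 32 genes only Ak1 had an unadjusted p under 0.05 (6.46% of all genes did), at -0.60 ± 0.25 (adjusted p = 0.688). The 2 highest Ak1 values of IgG2a came from its muscle-rich libraries, and without the 4 muscle-rich libraries the change was -0.0083 ± 0.11 (adjusted p = 0.9998). Cdkn1a changed by 0.23 ± 0.25 (adjusted p = 0.924), with a 95% interval of -0.29 to 0.75, and Mdm2 by 0.11 ± 0.16 (adjusted p = 0.960). For BRQ+PD-1 against BRQ+IgG2a, edgeR called 0% of all genes, and Polk alone of the 32 had an unadjusted p under 0.05 (7.29% of all genes did), at 0.32 ± 0.13 (adjusted p = 0.665). DESeq2 and limma voom also called none of the 32 in either comparison.

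For the combination against the control (BRQ+PD-1 against IgG2a), Sesn2 and Aen fell, 2 of 32 (6.25%), where 1.43% of all genes were called lower and 2.48% higher. Sesn2 changed by -0.66 ± 0.17 (adjusted p = 0.0349) and Aen by -0.43 ± 0.12 (adjusted p = 0.0482). The count was 0 without any of IgG2a replicates 1, 3 and 4 or BRQ+PD-1 replicates 1, 3 and 6, 1 without IgG2a replicate 6 or BRQ+PD-1 replicate 2, and 0 without the muscle-rich libraries. It was 2 without BRQ+PD-1 replicate 5, but the genes were then Rps27l and Phlda3, and 2 without IgG2a replicate 2, Sesn2 and Trp53. This comparison shares its controls with that of BRQ+IgG2a and its treated tumours with that against PD-1, so it adds no independent evidence.

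**Figure D4:**
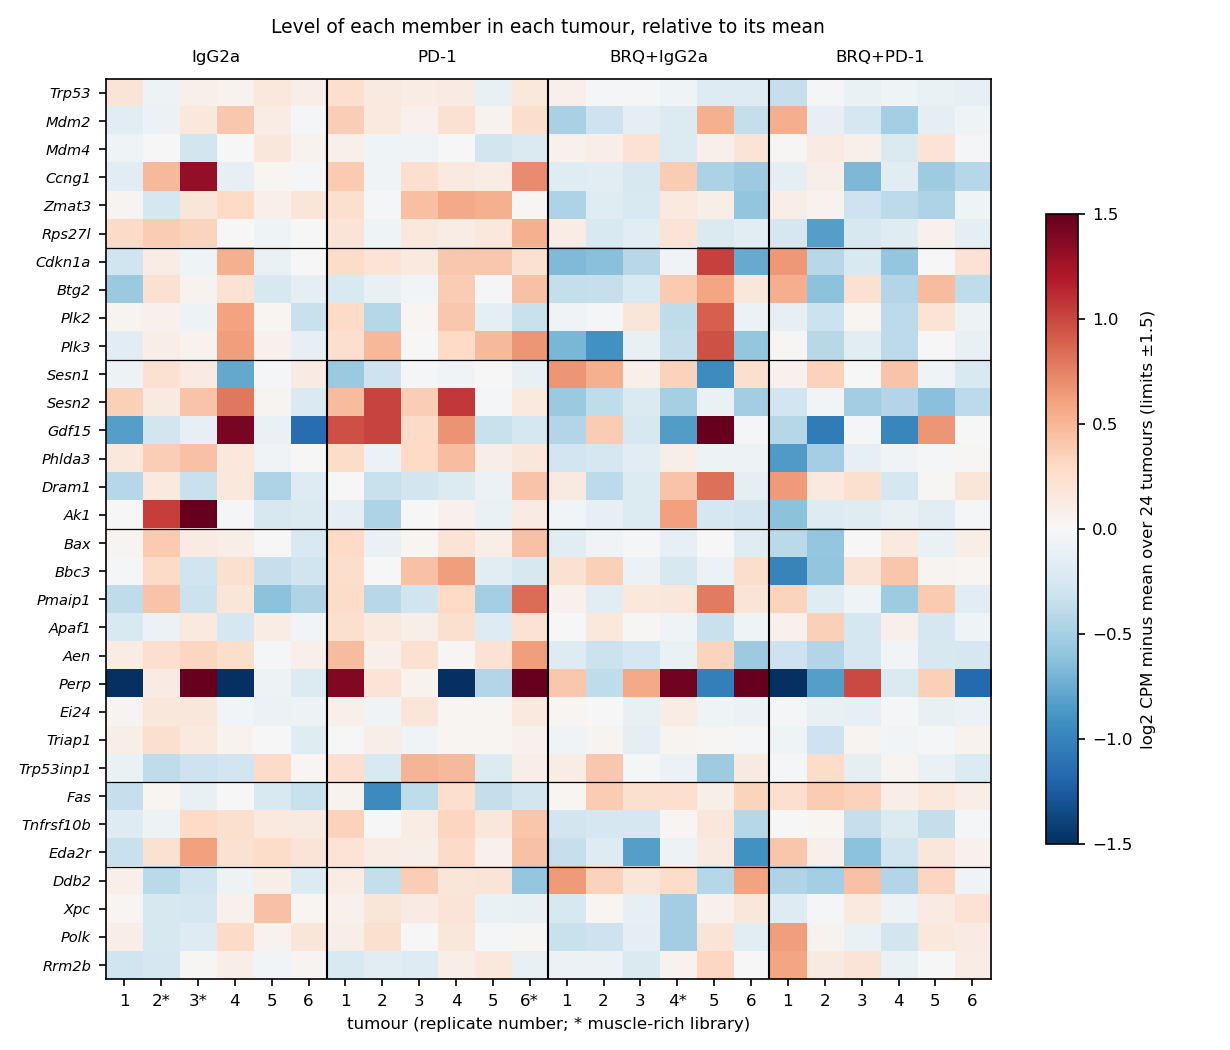
Log2 CPM of the 32 genes (rows, by role) in each of 24 tumours (columns, by group; asterisks mark muscle-rich libraries), minus the mean of each gene over all tumours, with the colour scale limited to ±1.5, which Perp exceeds. BRQ+IgG2a replicate 5 stands out with high Cdkn1a (320.4 CPM) and Mdm2 (124 CPM) and low Sesn1 (17.2 CPM).

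Tumours of 1 group also differed among themselves, and Cdkn1a served to order them. Over the 20 tumours that are not muscle-rich, with each group's mean removed, 12 of the other 31 genes rose with Cdkn1a and 3 fell with it at an adjusted permutation p under 0.05 for both Pearson's r and Spearman's rho (31 relations, 100000 resamples, two-sided). Tumours were shuffled across groups, although values with group means removed are not freely exchangeable, so these p-values may be too small. The share of all genes that would pass was not computed, so the count is not shown to be particular to these genes. Mdm2 followed Cdkn1a most closely, with r = 0.913 and rho = 0.827, adjusted p of 0.000155 and 0.000465 by permutation. Plk3 gave r = 0.877 and rho = 0.818, Dram1 r = 0.862 and rho = 0.647 and Polk r = 0.801 and rho = 0.75. The others that rose with Cdkn1a were Rrm2b, Plk2, Btg2, Tnfrsf10b, Pmaip1, Eda2r, Gdf15 and Zmat3. Sesn1 went the other way, with r = -0.805 and rho = -0.651, as did Trp53inp1 with r = -0.583 and rho = -0.531 and Trp53 itself with r = -0.578 and rho = -0.605.

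The farthest tumours from the median of Cdkn1a were BRQ+IgG2a replicate 5 and BRQ+PD-1 replicate 1. A repeat left these 2 tumours out, but the group means removed were still those computed with them. The remaining tumours of their groups thus kept shifted values, so the repeat does not show what holds free of the 2. In it 7 of the 15 relations kept an adjusted permutation p under 0.05 for r: 0.80 for Mdm2, 0.78 for Plk3, 0.657 for Dram1, 0.646 for Polk, 0.639 for Plk2 and -0.728 for Sesn1, with Gdf15 the seventh at an adjusted p of 0.0247. The other 8 did not pass: r was 0.511 for Rrm2b, 0.51 for Btg2, 0.55 for Pmaip1, 0.455 for Tnfrsf10b, 0.418 for Eda2r, 0.418 for Zmat3, -0.457 for Trp53inp1 and -0.349 for Trp53, with adjusted p of 0.073 to 0.304. The change in r was not tested, so these 8 relations are not shown to rest on those 2 tumours. Of the 8 genes that fell with brequinar, Ccng1, Phlda3, Rps27l, Sesn2 and Aen showed no relation to Cdkn1a that passed both tests. Sesn2 gave r = 0.286 and rho = 0.22, Rps27l r = -0.004 and rho = -0.024, Phlda3 r = -0.091 and rho = 0.071, Ccng1 r = -0.197 and rho = -0.191 and Aen r = 0.577 and rho = 0.335. For Fas the values were r = 0.017 and rho = 0.095. The smallest permutation p that 100000 resamples can give is 1e-05, reached by Mdm2 and Plk3 for r.

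**Figure D5:**
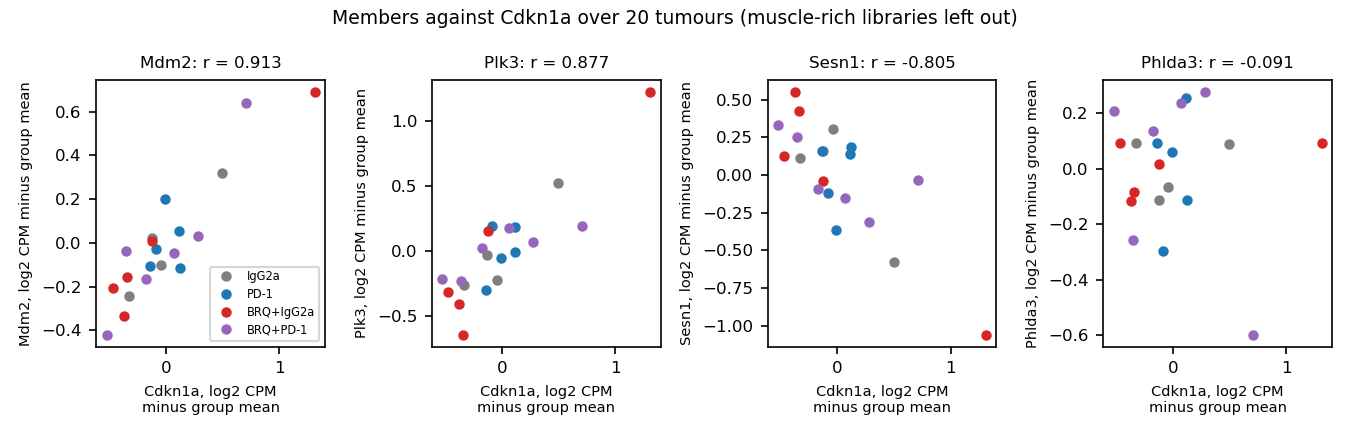
Log2 CPM of Mdm2, Plk3, Sesn1 and Phlda3 (vertical axes) against that of Cdkn1a (horizontal axes), each minus its group mean, in 20 tumours coloured by group. Mdm2 and Plk3 rise with Cdkn1a (r = 0.913 and 0.877), Sesn1 falls (r = -0.805) and Phlda3 shows no trend (r = -0.091); the tumour farthest to the right is BRQ+IgG2a replicate 5.

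Other genes of the pathway were taken from lists. Of 15 kinases and regulators that act upstream of p53, 13 were tested and none was called in any of the 7 comparisons by edgeR (2 at an unadjusted p under 0.05 for brequinar over both antibodies), with Ppm1d, a phosphatase that p53 induces to switch itself off, at -0.067 ± 0.06 (adjusted p = 0.487) over both antibodies. Of 28 further p53 targets, all tested, 2 rose and 5 fell with brequinar over both antibodies, where 6.91% of all genes were called higher and 5.57% lower. The median log2 fold change of the 28 was 0.024. Epha2, a receptor tyrosine kinase, fell from 129, 148 and 179.9 CPM in IgG2a and 165, 171 and 209.7 CPM in PD-1 to 92.1, 108 and 162 CPM in BRQ+IgG2a and 111, 112 and 125 CPM in BRQ+PD-1. The groups within each antibody overlapped for the control antibody and not for PD-1, and the change was -0.49 ± 0.09 (adjusted p = 0.00124). Trp53i11, a p53-inducible gene, stood at 49.4, 67.9 and 109.7 CPM in IgG2a, 60.8, 69.3 and 85.5 CPM in PD-1, 51.3, 86.3 and 171 CPM in BRQ+IgG2a and 111, 141 and 193 CPM in BRQ+PD-1. Its groups overlapped under the control antibody and not under PD-1. Trp53i11 changed by 0.76 ± 0.17 (adjusted p = 0.00576) over both antibodies, by 0.43 ± 0.24 (adjusted p = 0.436) under the control antibody and by 1.10 ± 0.24 (adjusted p = 0.0129) under PD-1. Ddit4, which like Sesn2 restrains mTORC1, fell with a change of -0.42 ± 0.12 (adjusted p = 0.0292), as did Psrc1, a microtubule-associated protein, with -0.51 ± 0.16 (adjusted p = 0.0357). Tigar, Pidd1 and Rprm were called as well.

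Genes of the ATF4 response fell beside Sesn2. Of 24 such genes outside the 32, 10 fell with brequinar over both antibodies and none rose. Of all genes, 5.57% were called lower and 6.91% higher. The median log2 fold change of the 24 was -0.30, against 0.0066 for all genes. The summed level of the 24 was 2278 to 4207 CPM without brequinar and 1961 to 3219 CPM with it. The 10 were Atf4, Chac1, Trib3, Phgdh, Slc7a5, Adm2, Cth, Shmt2, Mthfd2 and Aldh18a1. Chac1, a glutathione-degrading enzyme that is a target of ATF4, stood at 10.3, 24.5 and 39.6 CPM in IgG2a, 10.1, 22.6 and 44.4 CPM in PD-1, 4.56, 7.34 and 15.4 CPM in BRQ+IgG2a and 6.96, 8.75 and 11.8 CPM in BRQ+PD-1. The brequinar tumours were the lower, and Chac1 changed by -1.43 ± 0.26 (adjusted p = 0.00133). Atf4 itself changed by -0.48 ± 0.14 (adjusted p = 0.0272), Shmt2, of mitochondrial serine metabolism, by -0.52 ± 0.11 (adjusted p = 0.00267), Mthfd2, of the same folate pathway, by -0.67 ± 0.16 (adjusted p = 0.00809) and Cth, which makes cysteine, by -0.99 ± 0.24 (adjusted p = 0.00867). Ddit3, which encodes CHOP, changed by -0.070 ± 0.31 (adjusted p = 0.909). Of the 5 genes of the 32 that are also known to be induced through ATF4 or CHOP, Sesn2 and Tnfrsf10b fell and Gdf15, Pmaip1 and Bbc3 were not called. The part of ATF4 in the changes of Sesn2 and Tnfrsf10b was not tested.

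None of 22 proliferation genes listed here as repressed downstream of p53 rose with brequinar, and 2 fell. Of all genes, 6.91% were called higher and 5.57% lower. Mcm2, of the replicative helicase, changed by -0.41 ± 0.11 (adjusted p = 0.0162) and Foxm1, a mitotic transcription factor, by -0.40 ± 0.13 (adjusted p = 0.0463), and the other 20 were not called. Mki67, the Ki-67 antigen, changed by 0.084 ± 0.15 (adjusted p = 0.754). The summed level of the 22 had a median of 2317 CPM in IgG2a (2040.0 to 2448 CPM), 2627 CPM in PD-1 (2297 to 2886 CPM), 2588 CPM in BRQ+IgG2a (1015 to 2889 CPM) and 1835 CPM in BRQ+PD-1 (1595 to 2950.3 CPM). In BRQ+PD-1, replicates 1, 3, 5 and 6 lay below every tumour without brequinar and replicates 2 and 4 above them all. The part of these levels in the changes of the p53 targets was not tested.

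Markers of other cells that moved with brequinar, beside those of T cells, were 6 of 10 of cytotoxic lymphocytes, which rose. Of all genes, 6.91% were called higher and 5.57% lower. The 10 cytotoxic markers summed to 8.52 to 44.8 CPM without brequinar and 19.5 to 120.4 CPM with it. Of 10 macrophage markers, 2 rose (Adgre1 and Cd68) and 2 fell (Cd163 and Mertk), and the 10 summed to 1171 to 2277 CPM without brequinar and 977 to 3189.9 CPM with it. Of 8 keratinocyte markers 4 were tested and Lgals7, which encodes galectin-7, changed by -1.28 ± 0.20 (adjusted p = 0.000270); Krt5, Krt14, Krt1 and Dsp averaged under 0.1 CPM, and the 8 summed to 33.4 to 107 CPM without brequinar and 15.3 to 39.6 CPM with it. Of 9 melanocytic genes 4 were tested and Mitf, the melanocyte lineage factor, rose by 0.66 ± 0.20 (adjusted p = 0.0307); 2 of the 9 were at 0 in all tumours, and the 9 summed to 29.0 to 42.6 CPM without brequinar and 30.4 to 74.5 CPM with it. Of 6 markers of undifferentiated melanoma and neural crest edgeR called none (2 at an unadjusted p under 0.05), and the 6 summed to 1140.1 to 1582 CPM without brequinar and 1234 to 1837 CPM with it. None of 8 fibroblast, 6 endothelial, 15 tested skeletal muscle, 5 tested neutrophil or 4 tested B and plasma cell markers was called, with 2, 1, 2, 2 and 0 at an unadjusted p under 0.05. The part of cell composition in the falls of the 8 genes was not tested.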

How the data were processed

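RNA from 24 D4M tumours was sequenced; per the labels, it was prepared with RNeasy columns and had an integrity number above 9. The authors deposited whole-number counts per Ensembl gene, which were used as deposited. HISAT2 2.2.1, StringTie 2.2.1, Trim Galore 0.6.7, MultiQC 1.11, FastQC 0.11.8 and the GRCm39 genome are named in the submitters' processing notes. Which program, annotation and strand setting made the counts is not stated there. The deposited FPKM and TPM tables were not used here.

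Genes were filtered with filterByExpr and tested with edgeR 4.0.16 (R 4.3.3; TMM, robust quasi-likelihood, group as the only term, 24 libraries, 20 residual degrees of freedom). Benjamini-Hochberg adjustment ran over all 16029 genes in each of 7 contrasts, and a gene counts as called at an adjusted p under 0.05. The brequinar main effect is the mean of the contrasts under each antibody. SE is the log2 fold change divided by the root of F, and intervals are 95% with the residual degrees of freedom. CPM is scaled to the library total, so 1 CPM was 19.1 to 34.3 counts. RPKM used union exon lengths of the annotation at hand, of an older build. P-values of the fits set differences of group means against the spread between tumours. DESeq2 1.42.0 and limma 3.58.1 (voom with quality weights), other normalization and filters, and leave-one-out fits were alternatives. The fitting code was tested on simulated data. Between libraries of a group (60 pairs) the differences were 9.18 to 219 times what sampling noise gives, and no duplicate was found.

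The members and all gene lists were chosen with earlier results of these data known. All 32 genes are named; tumour values are given for called genes and for main regulators and effectors fixed by name. Protein sequences of the paralogues were not analysed here. Promoters and their coordinates are from RefSeq, GRCm38.p6.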

Additional observations from a re-analysis of the deposited data

Results flagged for a closer look

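Within groups of 6 tumours, the highest or lowest log2 CPM of a gene, normalized by TMM, was looked at. Its gap to its nearest neighbour was divided by the range of the group and compared with Dixon's critical value. The values below are CPM scaled to the library total, on which some gaps take up less of the range. Of 128 pairs of gene and group, 11 passed, 3 by their highest and 8 by their lowest tumour, and chance flags about 1 in 20 such groups. BRQ+IgG2a replicate 5 was high in Mdm2, at 124 CPM where the next tumour had 86.1 CPM, and low in Sesn1, at 17.2 CPM where the next had 38.7 CPM. IgG2a replicate 4 was high in Plk3, a stress kinase, at 42.9 CPM (next 31.4 CPM), and low in Sesn1, at 20.7 CPM (next 35.1 CPM). BRQ+PD-1 replicate 1 was low in Trp53, at 105 CPM (next 127 CPM), and in Ak1, at 66.1 CPM (next 94.5 CPM). BRQ+PD-1 replicate 2 was low in Rps27l, at 45.4 CPM (next 63.4 CPM), and in Triap1, at 14.8 CPM (next 16.4 CPM). The remaining values were Mdm4 at 74.5 CPM in BRQ+IgG2a replicate 4 (next 83.2 CPM), Ak1 at 166 CPM in the same muscle-rich library (next 109 CPM) and Apaf1 at 49.2 CPM in PD-1 replicate 5 (next 61.4 CPM).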

How the results depend on the processing

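Of 5396 results of single genes under alternatives, 5253 kept their side of the threshold, 90 lost a call, 53 gained one and 0 reversed among called values. Among the 5253 were 250 values, uncalled in both fits, that changed sign. The counts of called genes among the 32 moved as follows, and the cause was not tested. For brequinar over both antibodies (9), voom gave 14, and leaving out 1 tumour gave 9 to 14. For BRQ+PD-1 against PD-1 (7), voom gave 13, no filter 3, a 2-group fit 3, the fit without the muscle-rich libraries 4, and leaving out 1 tumour 2 to 5. For BRQ+IgG2a against IgG2a (1), DESeq2 gave 2, voom 8, the fit without muscle-rich libraries 0, and leaving out 1 tumour 0 to 4. For BRQ+PD-1 against IgG2a (2), DESeq2 gave 7, voom 4, no filter 0, the fit without muscle-rich libraries 0, and leaving out 1 tumour 0 to 2. The other 3 contrasts stayed at 0 members throughout.

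The tumours of different groups share only a replicate number: same-number deviations had r of -0.64 to 0.444 (median -0.004, 36 pairs), and 3 of 24 libraries correlated best with their own number. With a replicate block, the counts were 9 over both antibodies, 2 for BRQ+PD-1 against PD-1, 1 for BRQ+IgG2a against IgG2a, 1 for BRQ+PD-1 against IgG2a and 0 for the other 3.

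Over all genes, brequinar over both antibodies called 2001, and 3797 by voom. BRQ+PD-1 against PD-1 called 808, and 1406 by DESeq2, 2194 by voom, 431 without filter, 411 with the replicate block, 360 in a 2-group fit and 502 without muscle-rich libraries. BRQ+IgG2a against IgG2a called 554, and 888, 2113, 377, 361, 337 and 657 in the same order. BRQ+PD-1 against IgG2a called 627, and 1540, 1455, 297, 285, 371 and 404. BRQ+PD-1 against BRQ+IgG2a called 0, and 4 by DESeq2 and 620 by voom. Leaving out 1 tumour gave 1516 to 2525, 399 to 1083, 258 to 1179 and 256 to 783 for brequinar over both antibodies, BRQ+PD-1 against PD-1, BRQ+IgG2a against IgG2a and BRQ+PD-1 against IgG2a. Without the muscle-rich libraries, 1057 genes were higher and 585 lower with brequinar over both antibodies, against 1108 and 893. Fits without these libraries and on plain library totals were chosen after seeing the data. Low counts limit Perp (0 to 25 counts per tumour) and Ddb2.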
